A study of Mus musculus with 2 samples.

Results

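The replication-dependent histone genes supply the bulk of the histone proteins that package newly copied DNA. They were described here in CH12.LX, a cell line established from a mouse B-cell lymphoma. Members were the protein-coding genes of both deposited gene tables whose GENCODE M21 symbol begins with Hist1h, Hist2h or Hist3h, or is Hist4h4. This rule gave 64 of the 43346 genes in the tables: 6 for the linker histone H1, 18 for H2A, 15 for H2B, 12 for H3 and 13 for H4. Of 67 genes with such a symbol in the annotation, Hist2h2bb, Hist1h2bm and Hist1h2bh had no row under their gene identifier and were not analysed as members. The study holds 2 RNA-sequencing libraries of CH12.LX, numbered as biological replicates 1 and 2 from separate biosamples. They form 1 group with no named treatment, so replicate differences are differences between 2 libraries and carry no p-value. The line derives from strain B10.H-2aH-4bp/Wts, its age is recorded as unknown, and whether the biosamples were separate cultures is not given in the sources used here. The labels call the assay total RNA sequencing, yet describe the RNA as poly(A)+ and longer than 200 nt, and which applies to these libraries was not settled.

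Histone proteins of the classes H2A, H2B, H3 and H4 form the nucleosome core, and H1 binds the linker DNA between nucleosomes. The mRNAs of the replication-dependent genes accumulate in S phase. Most end just after a conserved stem-loop and lack a poly(A) tail, and the stem-loop is held by the protein SLBP. The 3′ end is cut by a machinery guided by the U7 small nuclear ribonucleoprotein. The genes lie in clusters of many near-identical copies, whereas replacement histone genes such as H2afz stand alone and make polyadenylated mRNA through the whole cell cycle.

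The stem-loop was found in the annotated transcripts of 42 of the 64 genes. The search took any perfectly paired stem of 6 bases that starts with GG around a loop of 4 bases that starts with TT, after the stop codon. Of the other 22 genes, 10 have models that hold coding sequence only, so no such sequence could be searched. Among the rest, Hist1h1b and Hist2h2ab have 0 bases after the stop codon, Hist1h2af 1 and Hist1h2ah 2, too few for a hairpin. The hairpin began a median of 31.5 bases after the stop codon, between 21 and 58 bases. The same search over the 200 bases after the stop codon found a hairpin in 0.0520% of 44269 other protein-coding transcripts, which belonged to 13 genes. H2afx, an H2A gene known to be made in both mRNA forms, was one of them. The 6 forms of the hairpin are shown by one gene each, with the stem and loop in capitals, because the stem sequence separated H4 from every other class.
Hist1h2bg: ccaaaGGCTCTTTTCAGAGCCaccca
Hist1h2bk: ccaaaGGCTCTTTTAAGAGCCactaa
Hist2h2ac: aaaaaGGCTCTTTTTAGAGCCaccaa
Hist1h4n: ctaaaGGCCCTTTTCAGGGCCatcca
Hist1h4i: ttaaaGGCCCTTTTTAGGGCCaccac
Hist1h4j: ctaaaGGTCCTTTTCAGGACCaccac
The stem GGCTCT stood in 31 genes of H1, H2A, H2B and H3 and in no H4 gene. All 11 H4 genes with a hairpin had GGCCCT, in 9 genes, or GGTCCT, in 2 genes. The loop varied less by class. The form of Hist1h2bg was shared by 24 genes, that of Hist1h4n by 7, that of Hist1h2bk by 6, those of Hist1h4i and Hist1h4j by 2 each, and Hist2h2ac had its own. In GRCm38 these stretches lie at chr13:23571838-23571863 on the plus strand for Hist1h2bg, chr13:22036295-22036320 on the plus strand for Hist1h2bk and chr3:96220413-96220438 on the minus strand for Hist2h2ac. For the H4 genes they lie at chr13:21831793-21831818 on the minus strand (Hist1h4n), chr13:22040961-22040986 on the minus strand (Hist1h4i) and chr13:21735432-21735457 on the plus strand (Hist1h4j). Each is in the 3′ untranslated part of the gene's transcript in annotation M21.

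In all, the members held 1448.63 TPM in replicate 1 and 968.11 TPM in replicate 2. TPM gives relative abundance per transcript length, with 1 common total for every library. Of the expected counts, the authors' estimates of reads per gene, they held 9755 of 24469094 in replicate 1 and 6612 of 23586580 in replicate 2. These are 0.0399% (95% Wilson interval 0.0391 to 0.0407%) and 0.0280% (0.0274 to 0.0287%) of the libraries. The 2 shares differed by more than their intervals, which cover counting error only. The sum is free of the division of reads among near-identical members. It still depends on the division between members and similar transcripts filed under other genes, such as those described below for Hist1h2br and Hist1h2bq. The members' share of bulk RNA cannot tell apart fewer cells in S phase, less histone mRNA per cell and a difference in RNA selection.

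At 1 TPM or more in both libraries stood 52 of the 64 genes, against 45.9% of all 21474 protein-coding genes. By class these were 5 of 6 H1 genes, 13 of 18 H2A genes, 12 of 15 H2B genes, 11 of 12 H3 genes and 11 of 13 H4 genes. The median member had a mean of 13.4 TPM and the median protein-coding gene 0.41 TPM. Levels were uneven within every class. The 10 highest members held 48.7% ± 1.505 (SD, n = 2) of the members' TPM. A set of 52 genes also had a mean of 20 or more counts, and differences between replicates are given for those. It is not the same set: Hist2h3c1 and Hist2h4 passed on counts but not on TPM, Hist1h2an and Hist1h2bp on TPM but not on counts.

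**Figure D1:**
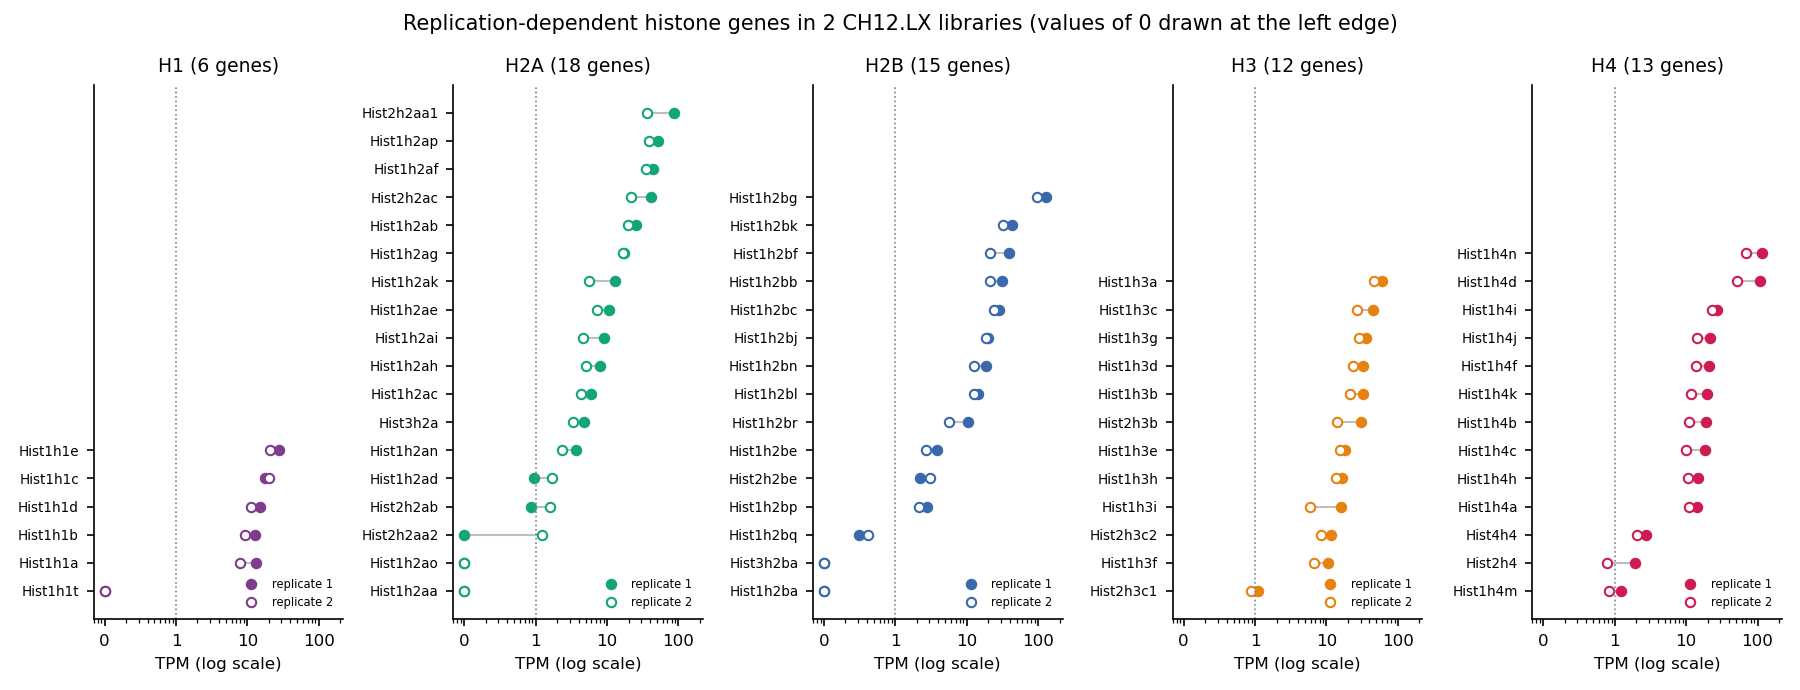
TPM of each of the 64 genes (x axis, log scale) by histone class, with replicate 1 as a filled and replicate 2 as an open circle; values of 0 are drawn at the mark 0 and the dotted line is 1 TPM. Replicate 2 lies to the left of replicate 1 for most genes, and Hist1h2bg, Hist1h4n and Hist1h4d are highest.

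Among linker histones, Hist1h1e was highest, with 27.88 TPM in replicate 1 and 20.74 TPM in replicate 2. Hist1h1a was lowest of those with 20 or more counts, at 13.01 and 7.96 TPM. Between them stood Hist1h1c at 17.5 and 19.94 TPM, Hist1h1d and Hist1h1b. By mean, these 5 somatic subtypes ran from 10.5 to 24.3 TPM, and the order of Hist1h1a and Hist1h1b changed between the libraries. Hist1h1t, the testis linker histone, had 0 counts in both libraries, which allows up to 0.284 and 0.295 TPM at 3 counts. The H1 genes held 6.56% ± 0.856 of the members' TPM. By expected counts they held 14.1% ± 2.30. The 5 detected H1 models are long for this family, at 642 to 1560 nt, and Hist1h1c ranked 2nd by counts and 22nd by TPM.

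Of the H2A genes, Hist2h2aa1 was highest by mean, at 86.79 TPM in replicate 1 and 35.76 TPM in replicate 2. In replicate 2 it stood below Hist1h2ap, which had 51.97 and 39.27 TPM. Hist1h2af followed with 44.67 and 34.84 TPM, and Hist2h2ac with 41.37 and 21.44 TPM. The lowest with 20 or more counts was Hist3h2a, at 4.7 and 3.37 TPM. Hist1h2aa, a germ-cell form, and Hist1h2ao had 0 counts in both libraries, although Hist1h2ao shares all but 6.497% of its 50-base windows with other genes. The copy Hist2h2aa2, none of whose 50-base windows is its own, had 0 and 7.60 counts. Hist2h2aa1 and Hist2h2aa2 encode 1 predicted protein from 1 coding sequence, and together had 86.79 and 37 TPM. The 18 H2A genes encode 9 predicted proteins. One of these proteins came from 9 genes of the Hist1 cluster, among them Hist1h2ap, and they held 42.7% ± 5.85 of the TPM of H2A.

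Hist1h2bg led both the H2B genes and the whole set, at 129.17 and 97.14 TPM, with 686.4 and 496.32 expected counts. Its gene spans chr13:23571396-23572013 on the plus strand in GRCm38. Hist1h2bk followed at 42.73 and 32.25 TPM, then Hist1h2bf at 38.54 and 21.42 TPM. The lowest with 20 or more counts was Hist2h2be, at 2.24 and 3.04 TPM. Hist1h2ba, known as the testis H2B, and Hist3h2ba had 0 counts in both libraries. With 1 annotated coding sequence taken per gene, the 15 H2B genes encode 9 predicted proteins. Hist1h2br and Hist1h2bq each have transcripts with coding sequences of 381 and of 405 bases. The shorter was taken for Hist1h2br, from a transcript with 0 counts in both libraries, and the longer for Hist1h2bq. Another choice may change the number. The protein shared by Hist1h2bg, Hist1h2bc and Hist1h2be took 48.0% ± 1.31 of H2B TPM, nearly all of it through the first 2 genes named, and Hist1h2be stood at 3.82 and 2.65 TPM.

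For H3, Hist1h3a was highest at 60.42 and 46.32 TPM. Hist1h3c had 44.25 and 26.7 TPM, and Hist1h3g had 35.7 and 28.35 TPM. Hist2h3c1 was lowest, at 1.11 and 0.89 TPM, and none of its 50-base windows was its own. The 12 H3 genes encode only 2 predicted proteins. The 8 genes of the first, which include every Hist2 gene, held 57.1% ± 2.19 of H3 TPM. Hist1h3a, Hist1h3g, Hist1h3h and Hist1h3i encode the second and held 42.9% ± 2.19.

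All 13 H4 genes encode 1 predicted protein, from 12 coding sequences. Hist1h4n had 116.39 TPM in replicate 1 and 69.11 TPM in replicate 2, and Hist1h4d had 108.73 and 51.38 TPM. These genes stood apart from the other H4 genes, the next of which, Hist1h4i, had 27.38 and 22.82 TPM. Their order relative to each other did not change between libraries. Just 14.4% of the 50-base windows of Hist1h4n were its own, so its level depends on how shared reads were divided. The deposited posterior SD of its count was at most 0.53% of the mean. Hist2h4 was lowest of those with 20 or more counts, at 1.9 and 0.78 TPM. No H4 gene was at 0 in both libraries.

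Per class, H4 held 25.1% ± 2.16 of the members' TPM, H2B 24.9% ± 1.87, H2A 21.7% ± 0.854 and H3 21.6% ± 0.289. H4 and H2B did not differ beyond their spread, nor did H2A and H3. In replicate 2 the H2B share led, at 26.3% against 23.6% for H4. By expected counts the H4 share was 19.95% and the H2B share 24.5%. The top gene weighed heavily on its class, since without Hist1h2bg the H2B share came to 17.1%.

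The Hist1 cluster on chromosome 13 held 88.9% ± 2.22 of the members' TPM through 52 genes. The 9 Hist2 genes on chromosome 3 (chr3:96219865-96269141) held 10.6% ± 2.25, and the other 3 genes under 1% between them: Hist3 0.336% and Hist4 0.201%. Within Hist1, genes fell into 4 runs separated by gaps of more than 100 kb. The run of 28 genes at chr13:23531050-23764406 held 57.9% ± 1.55, and the run of 17 genes at chr13:21715763-21837530 held 22.1% ± 0.696. The run of 5 genes at chr13:22035164-22043676 held 8.89% ± 1.36, with all 5 at 1 TPM or more. The last run, at chr13:23933773-23934851, consists of the pair Hist1h2aa and Hist1h2ba, both with 0 counts.

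Most members were lower in replicate 2. Of the 52 genes with a mean of 20 or more counts, 50 were lower, where 50.2% of all 11661 such genes were lower. The median difference on the log2(TPM + 0.5) scale, replicate 2 minus replicate 1, was -0.46 for members and -0.0022 for all genes. By 1.5-fold or more, 19 members were lower, against 1.84% of all genes. By 2-fold or more, 5 were lower, against 0.292% of all genes. Hist2h4, at 56 and 22 counts, stood just short of that limit at -0.91, and with a pseudocount of 0.1 there were 6. None was higher by 2-fold or more, against 0.137% of all genes. Scaling to the ERCC spike-in RNAs, which took 5430.81 and 4459.43 TPM, moved the median of all genes to 0.26 and that of members to -0.19. This scaling uses 1 factor per library and shifts all genes nearly alike. The gap of 0.45 between members and all genes therefore had to stay nearly the same. After it, 43 of the 52 members were below 0.

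**Figure D2:**
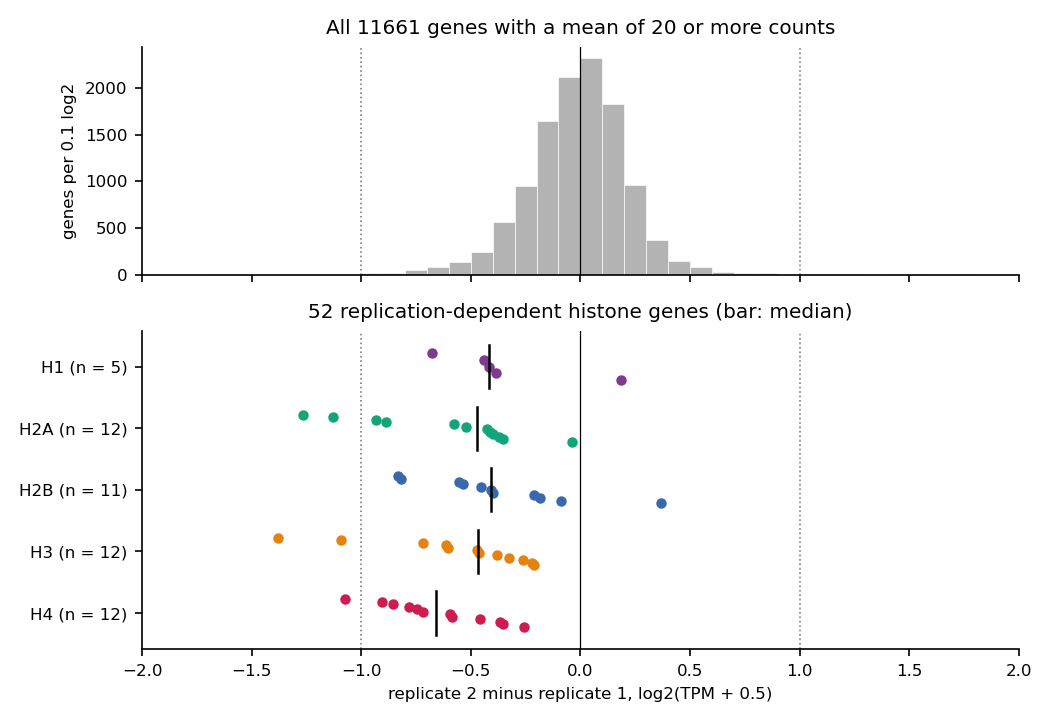
Differences between the libraries on the log2(TPM + 0.5) scale, replicate 2 minus replicate 1 (x axis), as a histogram of all 11661 genes (top) and as 1 point per histone gene by class with the class median as a bar (bottom); dotted lines mark 2-fold. Of 52 histone genes, 50 lie left of 0 and the medians of all 5 classes lie between -0.66 and -0.41.

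The 5 genes lower by 2-fold or more came from H2A, H3 and H4. Hist1h3i had 16.11 TPM in replicate 1 and 5.89 TPM in replicate 2, a log2 difference of -1.38 with a counting error of 0.36. Only 12.4% of its 50-base windows were its own. Hist2h2aa1, given above, differed by -1.27 with a counting error of 0.11. Hist1h2ak had 12.74 and 5.55 TPM (-1.13, counting error 0.39), and its model holds coding sequence only. Hist2h3b had 30.23 and 13.92 TPM (-1.09, counting error 0.20). Hist1h4d, at 387 and 176 counts, differed by -1.07 with a counting error of 0.13. Counts of Hist1h4d were whole in both libraries. In annotation M21, 89.8% of its 50-base windows were its own, but that transcript has 1138 nt and the deposited model 393 nt. Counting errors are of the log2 ratio of counts. They leave out spread between cultures and the uncertainty of dividing shared reads. Of 50-base windows, 10.6% of those of Hist2h2aa1 and 20.3% of those of Hist2h3b were their own.

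Just 2 of the 52 genes were higher in replicate 2. Hist1h1c had 489 and 535 counts, a log2 difference of 0.18 with a counting error of 0.09. Hist2h2be went from 112 to 146 counts, at 0.37 with a counting error of 0.18. Both have long transcript models, of 1560 and 2620 nt, with most of their windows unique. Other members with models of 1000 nt or more were lower in replicate 2, such as Hist4h4 at 2.76 and 2.05 TPM and Hist3h2a. Among the 9 members with models of 1000 nt or more, 7 were lower and the median was -0.43. All 33 members with models under 600 nt were lower, with a median of -0.53. The 429 other genes with models under 600 nt had a median of -0.06, a smaller shift.

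By class, the median difference was -0.66 for H4, -0.47 for H2A, -0.47 for H3, -0.42 for H1 and -0.41 for H2B. Every one of the 12 H4, 12 H3 and 12 H2A genes with enough counts was lower, 10 of 11 H2B genes and 4 of 5 H1 genes. The Hist2 sum went from 176.25 to 86.98 TPM, 2.03-fold lower in replicate 2, and the Hist1 sum was 1.44-fold lower. Within Hist1, the sum of the 5-gene run was 1.204-fold lower and that of the 17-gene run 1.56-fold lower. Hist2h2aa1 alone made up most of the Hist2 change. These class and cluster differences were not tested against one another.

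Genes of 2 other lists were mostly lower in replicate 2 as well. In a list of 5 genes with transcripts that lack the usual poly(A) tail, 4 were lower in replicate 2, and the median log2 difference was -0.53. Rn7sk, the RNA of the 7SK particle, had 1257.88 and 489.99 TPM. Malat1, a nuclear RNA with a triple-helix 3′ end, had 193.83 and 134.44 TPM. Neat1 was higher, at 6.54 and 8.55 TPM over all its transcripts, whatever their 3′ end. Of the 8 B-cell markers, 7 were lower, with a median of -0.16, among them Igkc, the kappa constant gene, at -0.22 and Pax5, a B-lineage transcription factor, at -0.21. Of 12 S-phase genes that make polyadenylated mRNA, 1 was lower and 11 were higher, with a median of 0.04. Pcna, the sliding clamp of DNA replication, had 634.88 and 689.47 TPM, and Tyms, thymidylate synthase, had 171.39 and 201.63 TPM. The part of tail type, of RNA selection and of the cell cycle in the lower histone levels was not tested.

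Longer, polyadenylated forms of histone mRNAs that run past the hairpin are known, so members were grouped by transcript model. Models that go on for 50 bases or more after it held 12.8% ± 0.701 of the members' TPM, in 11 genes. Models that end near it held 34.3% ± 0.629, in 15 genes. The 20 genes whose deposited length differs from annotation M21 held 37.0% ± 0.161, and their hairpin position in the authors' models is not known. Another 8 genes, of matching length but without a detected hairpin, held 8.60% ± 0.144. Some of these have too few bases after the stop codon to hold one. Genes with coding sequence only held 7.36% ± 0.377. The median difference between replicates was -0.45 for models past the hairpin, -0.40 for models ending near it and -0.72 for coding-only models. The order of the first 2 depends on the limit: at 200 bases it was -0.34 for models past the hairpin and -0.60 for models ending near it. Both the ending and the passing models were lower in replicate 2 in most genes, 11 of 11 and 9 of 10. The tables give no read positions, so the true 3′ ends were not measured.

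Hist1h2be has several annotated transcripts, and its hairpin forms run on for 1861 bases in annotation M21. Its transcript of 2408 nt had 156.92 and 95.24 counts, and that of 2099 nt, which has no annotated coding sequence and was not searched, had 15.02 and 18 counts. The deposited isoform percent of the 2099-nt transcript, a share of the gene's TPM, was 10.03 and 18.04. For Hist1h2br and Hist1h2bq, a short transcript was filed under another gene identifier in the deposited tables. For Hist1h2br the longer model had 224.35 and 117.44 counts and the separate 381-nt transcript 51.31 and 30.45 counts. For Hist1h2bq the separate 388-nt transcript had 40.79 and 36.26 counts against 12.1 and 16.12 for the gene itself. The transcript of Hist2h2bb, the H2B gene left out above, likewise stood under another identifier, at 131.85 and 87.46 counts. These transcripts are not part of the sums given here.

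Most H2A and H2B genes of the clusters start back to back and can share 1 promoter region. Such pairs, on opposite strands with starts pointing away from each other within 1000 bases, numbered 12, and their starts were 176 to 306 bases apart. The H2B gene had the higher TPM in both libraries in 8 pairs, the H2A gene in 3, and the pair Hist1h2aa and Hist1h2ba was at 0. The 8 include the pair of Hist1h2ao, at 0 counts, and Hist1h2bq, at only 12.1 and 16.12 counts. Just 2.75% of the 50-base windows of Hist1h2bq were its own, so its level rests on divided reads. Hist1h2bg stood at 12.1 and 13.3 times its partner Hist1h2ae, which had 10.68 and 7.29 TPM. Hist1h2bf stood at 41 and 12.5 times Hist1h2ad, which had only 4.74 and 8.24 counts. Hist1h2bk stood at 5.41 and 6.29 times Hist1h2ah. The other direction was widest for Hist2h2ac, whose partner Hist2h2be stood at 0.0541 and 0.142 times its level. Hist1h2ap exceeded Hist1h2br in the same way, at 0.200 and 0.144, with the short Hist1h2br transcript left out. Levels of the pair Hist1h2ag and Hist1h2bj were close, at 17.07 and 16.61 against 19.71 and 18.51 TPM. By expected counts the H2B gene was higher in 9 pairs and the H2A gene in 1. Some H2B models are much longer than their partner's, such as Hist2h2be.

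**Figure D3:**
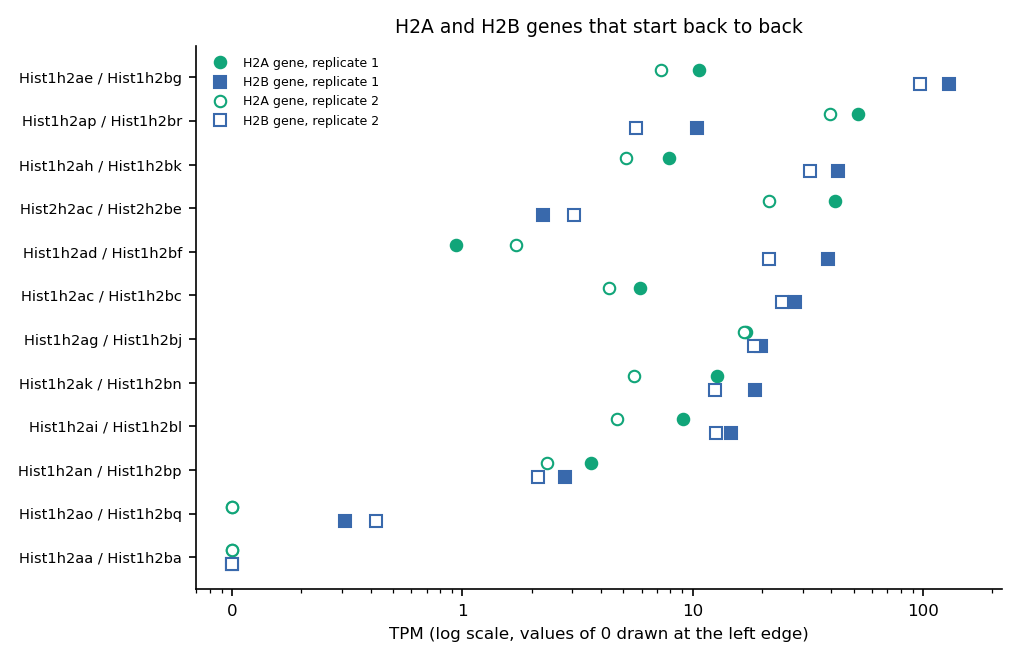
TPM (x axis, log scale, with 0 drawn at the mark 0) of both genes of the 12 pairs that start back to back, H2A genes as circles and H2B genes as squares, filled for replicate 1 and open for replicate 2. The H2B gene is higher in 8 pairs, furthest apart, of those with both genes above 0, for Hist1h2bf and Hist1h2bg, and both genes of Hist1h2aa and Hist1h2ba are at 0.

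Promoters were described by RefSeq sequence on GRCm38.p6, which was matched for 59 of the 64 genes, from 250 bases before to 50 after the start. 3 motifs were searched on both strands. The first, CCAAT, is bound by the factor NF-Y. It was present in all 47 promoters of H1, H2A, H2B and H3 genes, in 3 of 12 H4 promoters, and in 37.4% of all 32851 promoters. The second, TATAA, is the core of the TATA box and was present in 48 of the 59, against 24.9% of all. The third is the octamer bound by POU factors such as the product of Pou2f1, written ATTTGCAT, and was present in 7 of 18 H2A and 4 of 13 H2B promoters and in none of the other classes, against 1.74% of all. Windows of back-to-back pairs overlap, so a match can be counted for both genes. The H2B genes with an octamer match were Hist1h2bg, Hist1h2bk, Hist1h2bb, at 31.26 and 21.44 TPM, and Hist1h2ba, at 0 counts. The 130 bases before the start are shown, with matches in capitals. The genes are the highest H2B gene, the highest H2A gene and Hist1h4d, an H4 gene with whole counts in both libraries. All of these were lower in replicate 2.
Hist1h2bg: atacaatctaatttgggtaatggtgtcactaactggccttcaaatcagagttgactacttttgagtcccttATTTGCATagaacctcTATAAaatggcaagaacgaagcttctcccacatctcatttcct
Hist2h2aa1: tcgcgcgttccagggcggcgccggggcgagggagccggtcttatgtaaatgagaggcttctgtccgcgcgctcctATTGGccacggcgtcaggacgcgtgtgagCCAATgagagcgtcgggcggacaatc
Hist1h4d: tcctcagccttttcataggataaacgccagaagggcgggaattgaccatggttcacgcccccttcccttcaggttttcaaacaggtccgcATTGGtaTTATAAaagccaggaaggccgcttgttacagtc
They lie at chr13:23571270-23571399, chr3:96245367-96245496 and chr13:23581438-23581567, all on the plus strand. Within these bases the Hist1h2bg promoter shows the octamer followed by TATAA, that of Hist2h2aa1 shows CCAAT on both strands, and that of Hist1h4d shows CCAAT on the minus strand followed by TATAA. A match describes letters and is no evidence of binding.

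Replacement histone genes were set beside members of the same class. Selection for poly(A) tails would take replacement mRNA in preference to members that lack a tail, so these ratios, like the members' share of a library, read differently for a total and for a poly(A)+ library, and which applies here was not settled. For H2A, the 6 replacement genes summed to 3631.37 and 3972.22 TPM against 323.79 and 204.69 TPM for the 18 members, ratios of 11.2 and 19.4. H2afz, the H2A.Z gene, made up most of that sum, at 3389.56 and 3747.47 TPM. For H3, H3f3a, H3f3b and the centromere gene Cenpa summed to 1617.27 and 1712.67 TPM against 310.54 and 211.49 TPM, ratios of 5.21 and 8.10. For H1 the order was the other way round: H1f0 stood at 10.87 and 10.8 TPM, H1fx at 0 counts, and the members at 86.23 and 69.34 TPM. The ratio of H1 was 0.126 and 0.156. H2afx, which has the hairpin, had 27.85 and 24.77 TPM and a log2 difference of -0.17. The replacement genes above 0 differed by between -0.30, for H2afv, and 0.14, for H2afz.

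**Figure D4:**
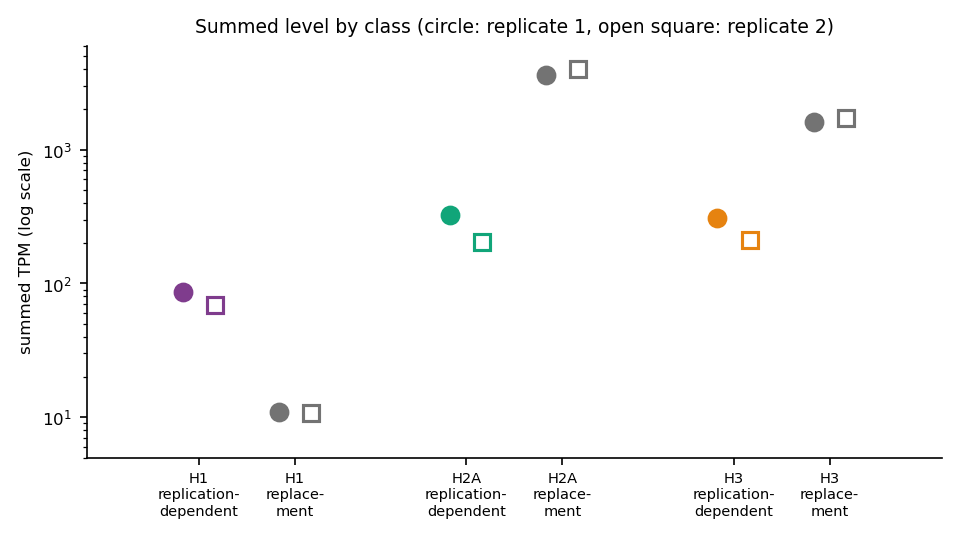
Summed TPM (y axis, log scale) of replication-dependent genes (coloured) and replacement genes (grey) of H1, H2A and H3, as circles for replicate 1 and open squares for replicate 2. Replacement genes are above the members for H2A and H3 and below for H1, and the members' sums are lower in replicate 2.

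The factors that make and handle these mRNAs and proteins were expressed throughout. All 14 genes of 3′ end processing, 8 of histone transcription, 9 of histone mRNA decay, 20 histone chaperones and 12 S-phase genes stood at 1 TPM or more in both libraries, against 45.9% of all protein-coding genes. Slbp, the stem-loop binding protein, had 208.09 and 227.23 TPM, and Lsm11, a U7-specific subunit, had 6.87 and 6.89 TPM. Snrpb, a core spliceosomal subunit shared with U7, was highest of the processing list at 395.91 and 399.7 TPM. Casp8ap2 (FLASH), which helps to recruit the cleavage factors, had 33.27 and 44.74 TPM. Npat, the coactivator of histone transcription, had 16.28 and 17.04 TPM, and Hinfp, a factor of H4 promoters, had 7.52 and 8.82 TPM. In decay, Eri1, an exonuclease of the stem-loop, had 34.41 and 36.46 TPM, Exosc3 was highest at 163.67 and 169.08 TPM, and Tut7 lowest at 4.71 and 5.43 TPM. Of the chaperones, Npm1 was highest at 6184.85 and 6419.41 TPM, Cabin1 lowest at 5.84 and 6.21 TPM, and Nasp, which holds H3 and H4, had 237.89 and 298.42 TPM. Median differences were 0.03 for processing, 0.12 for transcription, 0.06 for decay and -0.01 for chaperones.

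Levels of single members depend on the division of shared reads. Windows of 50 bases were taken from each member's longest transcript in annotation M21. The median share found in no other gene was 98.9% for H1, 27.0% for H2A, 50.3% for H2B, 38.02% for H3 and 60.5% for H4. For 20 members the deposited length differs, such as Hist1h1d, with 7425 nt in M21 and 744 nt deposited. Their shares may not hold for the models that were counted. The deposited posterior SD of the count exceeded 20% of its mean in 3 of the 52 genes, Hist1h2ai, Hist1h2ah and Hist2h3c1. Counts were whole in both libraries for 8 of the 52. Over the 27 genes with at least 50% unique windows, Hist1h1d among them, 25 were lower in replicate 2, with a median of -0.46. The labelled cell type matched its markers. All 8 B-cell markers stood at 1 TPM or more, from Pax5 at 9.09 and 7.77 TPM to Igkc, and of the markers of other cell types reported here Hbb-bt alone passed, at 4.38 and 4.56 TPM, while Cd3e, Thy1 and Cd14 had 0 counts.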

How the data were processed

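The authors deposited, for each library, gene and transcript tables made on mm10 with GENCODE annotation M4 and ERCC spike-ins, per the text deposited with them. Aligner and quantification tool were not given in the sources used here. Expected counts deposited by the authors divide shared reads between genes. TPM, FPKM and isoform percent values were deposited too, as were posterior means and SDs. Symbols, types and transcript sequences came from GENCODE M21 on GRCm38 by identifier without version; 20 members have another length there. Differences are log2(TPM + 0.5), replicate 2 minus replicate 1, at a mean of 20 or more expected counts. TMM factors from edgeR 4.0.16 on rounded expected counts and the other alternatives stand in the closing section. Members, lists and named genes (the 10 highest, the extremes of each class, differences over 2-fold, genes at 0, pairs and transcripts described) were chosen with earlier results of these data known. The deposited credibility bounds were not used. Computations used Python 3.11.15 and were tested on simulated data. With reads that carry no molecular identifiers, intervals cover counting error only. One marker of the list for other cell types is not reported here.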

Additional observations from a re-analysis of the deposited data

How the results depend on the processing

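No paired analysis was possible because the study has 1 group of 2 libraries. The number of members at 1 TPM or more and the number of pairs stayed within 1.5 times, and their share of the library within 1 SD, under the other alternatives run. With 2 libraries, leaving out one gives the value of the other, which says nothing of stability: the replacement ratio was 11.2 or 19.4 for H2A, 5.21 or 8.10 for H3 and 0.126 or 0.156 for H1. Of the shares of member TPM, expected counts gave 14.1% for H1, 19.1% for H2A, 22.4% for H3, 19.95% for H4 and 82.7% for Hist1. Counts per annotated length gave 8.70% for H1, 22.8% for H3 and 22.5% for H4. Without Hist1h2bg the shares were 24.0% for H2A, 17.1% for H2B, 23.9% for H3 and 27.7% for H4. With expected counts the replacement ratios were 46.1 for H2A, 20.2 for H3 and 0.409 for H1, since replacement transcripts are longer. Under TMM factors, size factors, posterior means, FPKM and both other pseudocounts the median difference of members stayed between -0.49 and -0.42, and 50 of 52 were lower. By 2-fold or more, 6 were lower with size factors or a pseudocount of 0.1, and 4 with TMM factors. ERCC scaling gave a median difference of -0.19, with 1 member lower by 2-fold or more and 8 by 1.5-fold or more. It turned 7 members to above 0, Hist1h2bl, Hist1h3h, Hist1h4i, Hist1h2ag, Hist1h2bj, Hist1h3e and Hist1h2bc. At 100 or more counts 30 of 32 members were lower, 3 by 2-fold and 10 by 1.5-fold. With 50% or more unique windows in M21 transcripts it was 25 of 27, 1 by 2-fold and 8 by 1.5-fold. Both cases have fewer genes, and 20 members differ in length between M21 and the deposited models. Models past the hairpin held 41.3% of member TPM at a limit of 20 bases and 8.03% at 200 bases.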
